A study of Homo sapiens with 15 samples.

Results

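Promoters carrying trimethylation of histone H3 at lysine 4 (H3K4me3) were compared between LM2 cells and the parental MDA-MB-231 line (Par), and each change was assigned to the genes that start there. MDA-MB-231 is a human triple-negative breast cancer cell line, and LM2 is a sub-population of it that metastasizes to lung. BrM2, a sub-population that metastasizes to brain, is given only for reference. The members were all 22572 consensus H3K4me3 peaks of the 84767 peaks of both profiled marks, in the 2 Par and 2 LM2 libraries, which are 4 of the 15 samples of the series. Per the labels, cells of each line grew for 3 days in medium with 10% serum and were fixed in 1% formaldehyde, with no further treatment or genetic change named. Each line is a cultured population, and the labels do not say whether replicates came from separate cultures, so the p-values measure the spread between libraries. Peaks no farther than 2 kb from an annotated start of a protein-coding gene are named promoter peaks here, and a gene was called gained or lost when a promoter peak of it passed the test (DESeq2, adjusted p under 0.05).

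H3K4me3 is written by COMPASS-family methyltransferases around the starts of genes that are transcribed or poised, and CpG-rich starts carry it in most cell types. A gene can have several starts, each with a peak of its own, and the start in use sets the first exon of the transcript. H3K27ac marks active promoters and enhancers and usually accompanies H3K4me3 where a start is in use.

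Reads in H3K4me3 peaks numbered from 3489607 to 9839629 per library, and replicate 2 of each line was the deeper one. Values below are normalized counts, which are reads in a peak scaled by the library's size factor. The mesenchymal markers of MDA-MB-231 (VIM, CD44, AXL, ZEB1, CAV1 and MSN) all had promoter peaks, at 201 to 1753 normalized counts in the 4 libraries. None of these 6 genes was called by DESeq2 without the replicate block. With it, 0 were gained and 2 were lost (0% and 33.3%, against 10.2% and 8.35% of all genes). CDH1, which encodes E-cadherin, had a weak peak of 12.9 to 41.8 normalized counts. Of 7 markers of blood, endothelial, lung, liver and glial cells, SFTPC and GFAP alone had a promoter peak, at 1.84 to 9.0 and 15.3 to 49.3 normalized counts, and neither was called.

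The base content of starts that changed differed widely. The 250 bases before 5 of these starts are shown because they include CG-rich and CG-poor starts of both directions and hold no annotated exon. They were read from GRCh37 on the strand of the gene, 5′ to 3′, with each CG in capitals, and each window lies wholly inside its peak. FBXL7 (chr5:15500039-15500288, plus strand), PAPPA (chr9:118915820-118916069, plus strand) and PDE10A (chr6:166400092-166400341, minus strand) gained H3K4me3 in LM2. KLF14 (chr7:130418968-130419217, minus strand) and DNMBP (chr10:101690754-101691003, minus strand) lost it.
FBXL7: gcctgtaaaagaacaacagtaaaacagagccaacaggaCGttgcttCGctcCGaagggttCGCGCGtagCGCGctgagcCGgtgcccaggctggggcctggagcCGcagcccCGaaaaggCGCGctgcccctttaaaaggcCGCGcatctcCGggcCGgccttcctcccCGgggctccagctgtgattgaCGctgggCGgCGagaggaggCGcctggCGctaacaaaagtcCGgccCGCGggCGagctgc
PAPPA: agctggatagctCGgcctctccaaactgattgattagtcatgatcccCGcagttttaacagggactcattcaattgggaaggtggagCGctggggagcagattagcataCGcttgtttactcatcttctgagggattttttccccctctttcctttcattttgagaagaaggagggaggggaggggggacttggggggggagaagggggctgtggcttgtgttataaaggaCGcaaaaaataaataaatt
PDE10A: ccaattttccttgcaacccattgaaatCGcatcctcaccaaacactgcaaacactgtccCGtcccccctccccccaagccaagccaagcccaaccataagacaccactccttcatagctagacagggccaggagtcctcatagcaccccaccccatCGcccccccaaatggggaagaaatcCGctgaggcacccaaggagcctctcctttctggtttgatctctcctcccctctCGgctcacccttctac
KLF14: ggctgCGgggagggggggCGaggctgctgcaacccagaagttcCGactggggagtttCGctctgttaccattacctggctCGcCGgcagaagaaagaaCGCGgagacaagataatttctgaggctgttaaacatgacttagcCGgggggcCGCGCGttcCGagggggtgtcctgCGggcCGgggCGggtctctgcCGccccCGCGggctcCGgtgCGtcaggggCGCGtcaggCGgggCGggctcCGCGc
DNMBP: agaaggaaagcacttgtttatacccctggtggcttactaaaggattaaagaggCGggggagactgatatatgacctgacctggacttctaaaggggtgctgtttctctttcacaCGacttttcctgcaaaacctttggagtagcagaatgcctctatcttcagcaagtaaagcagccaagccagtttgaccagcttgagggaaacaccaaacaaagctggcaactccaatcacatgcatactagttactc

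The FBXL7 and KLF14 windows hold 27 CG each, the PAPPA and PDE10A windows 5 each and the DNMBP window 2. Over the main starts of 19540 protein-coding genes the median window of this length held 18 CG, and 97.1% held at least 1. The share of genes with fewer CG was 74.6% for FBXL7 and KLF14, 18.8% for PAPPA and PDE10A and 7.44% for DNMBP. CG-rich and CG-poor starts were thus found among both gains and losses. Over whole peaks, the ratio of observed to expected CG had a median of 0.74 at gained genes, 0.71 at lost genes and 0.67 over all genes with a promoter peak. The ratio was under 0.4 at 8.33% of gained genes, at 21.8% of lost genes and at 5.49% of all genes, given as a description with no test.

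LM2 gained H3K4me3 at 228 protein-coding genes and lost it at 78, and no gene had promoter peaks called in both directions. Of 19834 protein-coding genes, 13785 had a promoter peak and 13678 could be tested, so that 1.67% of tested genes were gained and 0.57% were lost. Gained genes had a median of 69.3 normalized counts in Par and 243 in LM2, and lost genes 78.8 in Par and 11.2 in LM2. Over all genes with a promoter peak the Par median was 353. The counts of both lines enter the calls, so these medians are a description. The median log2 fold change was 1.72 at gained and -2.76 at lost genes, against -0.02 over all genes, and 87 gained and 56 lost genes changed by at least 2 on the log2 scale. With genes at the counting floor set to their bound (3 counts per library), the medians were 1.72 and -2.72. The peak held the start itself at 217 of the 228 gained and 75 of the 78 lost genes.

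**Figure D1:**
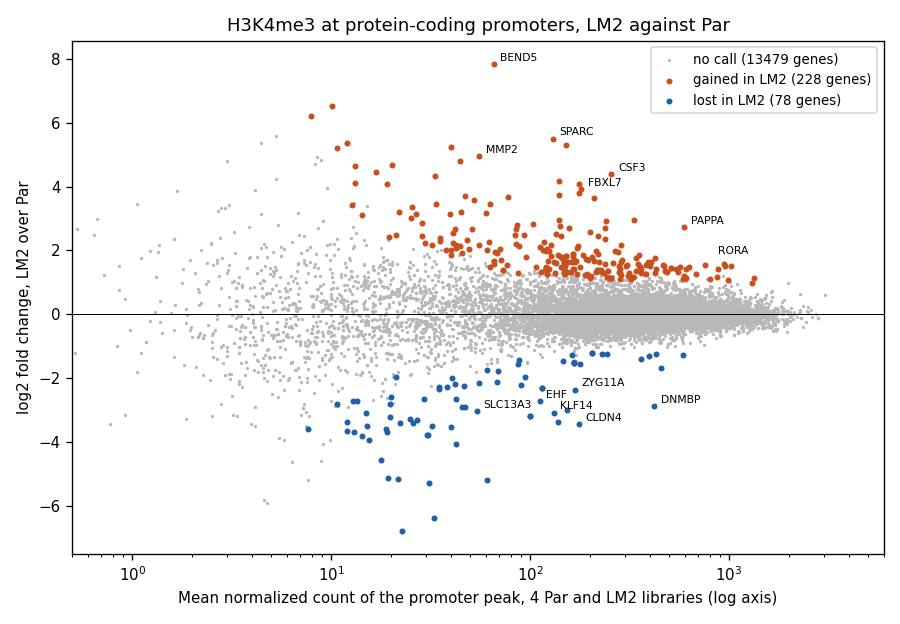
Each point is a protein-coding gene with a promoter peak, placed by the mean normalized H3K4me3 count of its 4 Par and LM2 libraries (x, log axis) and the log2 fold change of LM2 over Par (y). The 228 gained genes (orange) reach higher mean counts than most of the 78 lost genes (blue), and named genes are labelled where there is room.

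Over all H3K4me3 peaks, 411 of 20821 tested were higher in LM2 (1.97%) and 112 were lower (0.538%). By position, 1.71% of tested peaks at protein-coding starts were higher, 2.48% at starts of other genes, 1.37% inside protein-coding genes and 3.28% between genes. The corresponding shares of lower peaks were 0.57%, 0.99%, 0.312% and 0.292%. The normalized counts of both lines did not overlap at all 228 gained and 78 lost genes. With 2 libraries a side, 17.97% of all peaks had LM2 wholly above Par and 15.9% had it wholly below.

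Libraries of the same replicate number deviated alike, and the fit blocked on that number called 1390 genes gained (10.2%) and 1138 lost (8.35%). It held 226 of the 228 gained and 77 of the 78 lost genes. The edgeR quasi-likelihood test called 153 of the 228 and 54 of the 78. Fewer genes were called when a library was left out, with 105 gained and 44 lost without Par replicate 1, 51 and 26 without Par replicate 2, 69 and 36 without LM2 replicate 1, and 105 and 33 without LM2 replicate 2.

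The largest gains were at genes whose promoters were nearly bare in Par. BEND5, which encodes a BEN-domain DNA-binding protein, had 0 and 0.771 normalized counts in Par and 165 and 96.9 in LM2 (chr1). These Par values rest on 1 read, and the counting ratio of LM2 over Par was 211 with a 95% interval of 37.5 to 8349 that covers counting error only. The adjusted p was 8.93e-06, and the call was lost without Par replicate 2 (adjusted p = 0.34), without LM2 replicate 1 (0.682) and without LM2 replicate 2 (0.394).

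SPARC, a secreted matricellular protein that binds collagen, had 1.84 and 7.71 normalized counts in Par against 218 and 293 in LM2 at chr5:151064325-151066794. Its log2 fold change was 5.50 ± 0.61 (SE; adjusted p = 1.26e-15). MMP2, a secreted gelatinase that cuts basement membrane collagen, had 0 and 5.39 in Par against 107 and 110 in LM2 at chr16:55513006-55514450 (log2 fold change 4.96 ± 0.83, adjusted p = 1.01e-06). Both LM2 libraries were far above both Par libraries at each gene. The MMP2 call was lost without LM2 replicate 1 (adjusted p = 0.71) and without LM2 replicate 2 (0.527). The BrM2 libraries had 39.6 and 50.4 at SPARC and 1.32 and 9.96 at MMP2.

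CSF3, which encodes the granulocyte growth factor G-CSF, had 14.7 and 30.1 normalized counts in Par and 419 and 562 in LM2 (4.38 ± 0.46, adjusted p = 3.03e-17). In BrM2 it had 6.59 and 14.9. AMPH, which encodes the endocytic protein amphiphysin, had 5.51 and 8.48 in Par and 346 and 244 in LM2 (5.30 ± 0.55, adjusted p = 1.01e-17). At AMPH the BrM2 libraries had 525 and 345.

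AFF3, a nuclear protein of the super elongation complex family, rose from 18.4 and 12.3 to 265 and 262 normalized counts. PLCB1, a phospholipase C that acts below G protein-coupled receptors, rose from 22.1 and 17.7 to 396 and 265. FBXL7, an F-box protein of ubiquitin ligases, rose from 20.2 and 23.9 to 406 and 274. These 3 genes had log2 fold changes of 4.18, 4.08 and 3.91. LRMDA, a gene of melanocyte differentiation, rose from 20.2 and 25.4 to 393 and 263. PDE10A, a phosphodiesterase that degrades cyclic nucleotides, rose from 7.35 and 29.3 to 214 and 311. Their log2 fold changes were 3.81 and 3.73. SPARC, AMPH, CSF3, AFF3, PLCB1, FBXL7, LRMDA and PDE10A stayed called when any of the 6 libraries was left out.

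Among peaks with a mean of at least 500 normalized counts over Par and LM2, the rule also named 5 further gains. All 5 had a Par mean under 500, so they reached that level through LM2. PAPPA, a metalloproteinase that frees insulin-like growth factors from their binding proteins, rose from 164 and 151 normalized counts in Par to 1209 and 861 in LM2 (log2 fold change 2.72 ± 0.34, adjusted p = 1.63e-12). RORA, a nuclear receptor, rose at the peak of that rule from 470 and 262 to 1598 and 929 (1.79 ± 0.41). Its promoter peak of smallest p, at another start, rose from 90.0 and 66.3 to 657 and 522 (2.94 ± 0.35, adjusted p = 2.99e-13) and stayed called without each library. TFAP2C, a transcription factor of mammary epithelium, rose from 454 and 494 to 1671 and 1151 (1.57 ± 0.34). STOX2, a storkhead-box gene, had a log2 fold change of 1.56, and SHISA2, an inhibitor of Wnt and FGF receptor maturation, one of 1.50. PAPPA stayed called without each library. The other 4 named peaks lost the call without LM2 replicate 1, at log2 fold changes of 1.34 for RORA, 1.27 for TFAP2C, 1.09 for STOX2 and 1.09 for SHISA2. RORA (1.43), STOX2 (1.44) and SHISA2 (1.33) also lost it without Par replicate 2, and TFAP2C (1.51) without Par replicate 1. With the median of the surrounding 5 Mb removed, SHISA2 on chromosome 13 was at 0.92 (adjusted p = 0.301) and was not called.

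The smallest called gains among peaks of that mean were ADM (0.98), ZNF503 (1.09), BCL11A (1.11) and PTK7 (1.12), with LM2 about 2 times Par by read ratio (1.93, 2.08, 2.15 and 1.99). ADM encodes adrenomedullin, a vasodilator peptide, and PTK7 a catalytically inactive receptor of Wnt signalling. All 4 lost the call without any 1 of the Par or LM2 libraries, at log2 fold changes from 0.88 to 1.31. ADM and PTK7 lost it also without either BrM2 library (adjusted p from 0.0525 to 0.0818), as did ADM with 5 Mb medians removed (0.91) and ZNF503 (0.96).

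**Figure D2:**
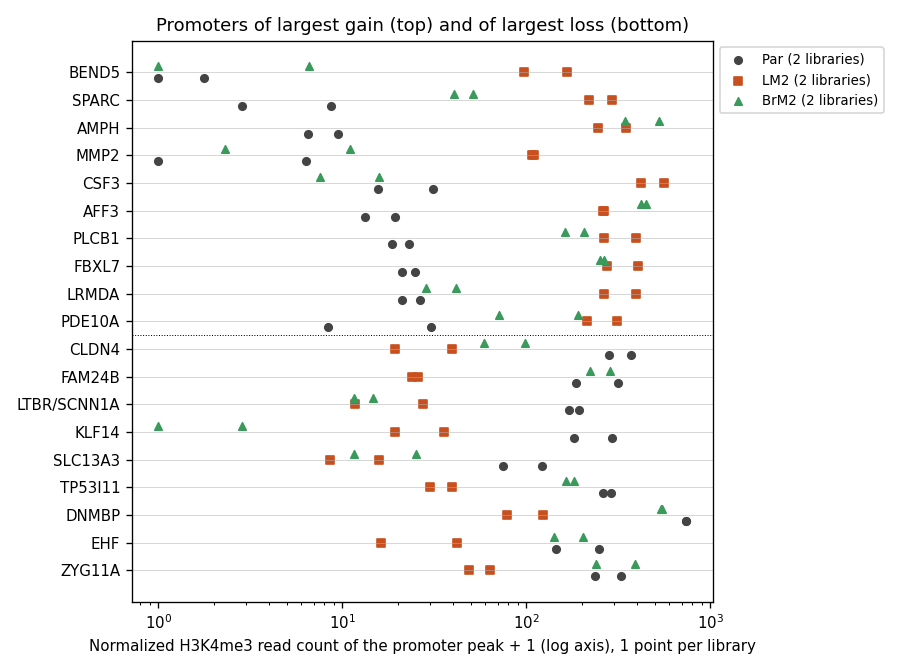
Normalized H3K4me3 count plus 1 of each promoter peak in each library (x, log axis), for the 10 genes of largest gain above the dotted line and 9 of the 10 peaks of largest loss below it. LM2 (squares) and Par (circles) do not overlap in any row, while BrM2 (triangles) lies with LM2 at AMPH, AFF3 and FBXL7 and with Par at BEND5, LRMDA and ZYG11A.

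Several further gains from near-empty promoters lay under the mean count that the naming rule required and were chosen after their values were seen. ENG, which encodes the TGF-beta co-receptor endoglin, had 0 and 4.62 normalized counts in Par and 77.8 and 95.3 in LM2 (log2 fold change 4.81). KISS1, which encodes the kisspeptin precursor, had 1.84 and 2.31 in Par and 29.0 and 42.9 in LM2, a counting ratio of 18.1 (6.85 to 67.7) that rests on 4 Par reads. ENG stayed called without each library, and KISS1 lost the call without Par replicate 2 (adjusted p = 0.332). At 11 gained genes neither Par library held more than 3 reads. ANK1 and PLCH2 had 0 reads in Par, and LM2 was at least 5.17-fold and 4.06-fold higher than 3 counts per library. The calls of both were lost without any 1 of the Par or LM2 libraries, with adjusted p from 0.0819 to 0.446 at ANK1 and none given at PLCH2, and that of PLCH2 also without either BrM2 library (0.0505 and 0.0522).

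Among the large losses at promoters of sufficient level was CLDN4, which encodes the tight-junction protein claudin-4, with 279 and 369 normalized counts in Par and 18.3 and 38.7 in LM2 at chr7:73244932-73247659 (log2 fold change -3.44 ± 0.46, adjusted p = 7.64e-11). EHF, an ETS factor of epithelial cells, fell from 143 and 247 to 15.3 and 41.3 (-2.71 ± 0.49). The EHF call was lost without Par replicate 2 (-2.27, adjusted p = 0.065). The peak shared by SCNN1A, a subunit of the epithelial sodium channel, and LTBR, the lymphotoxin beta receptor, fell from 171 and 192 to 10.7 and 26.5 (-3.19 ± 0.51).

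Other genes with epithelial roles among the 78 were picked out after their values were seen. KRT7, a simple-epithelium keratin, fell from 731 and 657 to 200 and 228 normalized counts (-1.69, adjusted p = 3.21e-05). SPDEF, an ETS factor of luminal and secretory cells, fell from 16.5 and 53.9 to 1.53 and 7.41 (-2.81, adjusted p = 0.0221). KRT7 stayed called without each library, while SPDEF lost the call without Par replicate 2 (-1.69), LM2 replicate 1 (-2.31), LM2 replicate 2 (-4.59) and BrM2 replicate 2 (-2.84). OVOL2, an epithelial zinc finger repressor, moved the other way, from 165 and 133 to 308 and 365 (1.18, adjusted p = 0.0305). The epithelial list of 20 genes had 19 with a promoter peak, with a median log2 fold change of 0.20. Of these, OVOL2 was gained and CLDN4 was lost (5.26% each, against 1.67% gained and 0.57% lost of all genes). The blocked fit called 3 of them in each direction (15.8% each, against 10.2% and 8.35%). The OVOL2 call was lost without any 1 of the 6 libraries, at log2 fold changes from 1.03 to 1.33.

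KLF14, an imprinted Kruppel-like factor gene, fell from 290 and 181 normalized counts to 18.3 and 34.9 (-3.08, adjusted p = 2.37e-07) and had 0 and 1.87 in BrM2. DNMBP, a scaffold that activates Cdc42 at cell junctions, fell from 739 and 742 to 77.8 and 122 (-2.87, adjusted p = 1.60e-13). TP53I11, a p53-induced gene, fell from 287 and 260 to 29.0 and 38.7 (-2.98). FAM24B (-3.37) and ZYG11A (-2.36) fell as well. SLC13A3, a dicarboxylate transporter, fell from 73.5 and 120 to 7.62 and 14.8 (-3.04), and this call was lost without Par replicate 2 (-2.65, adjusted p = 0.266). At 8 lost genes neither LM2 library held more than 3 reads, among them CCBE1, a secreted factor of lymphatic vessel growth. CCBE1 had 49.6 and 79.4 in Par and 1 read in each LM2 library, a counting ratio of Par over LM2 of 89.8 (24.4 to 749).

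In 41 genes a start changed while another start of the same gene did not pass the test. Of 1443 genes with 2 or more promoter peaks, 62 had a called one (4.3% of the 1441 tested, against 2.24% of all genes, most of which have a single peak to call), and 41 of these (30 gained, 11 lost) had another, uncalled peak with a mean of at least 50 normalized counts. DST, which encodes the cytolinker dystonin, gained a peak that had 3.67 and 10.8 normalized counts in Par and 68.6 and 125 in LM2 (3.59). At its strongest other start, 102759 bp away, Par had 1479 and 981 and LM2 1311 and 881 (-0.17, adjusted p = 1). PDE10A gained the outer start shown above, while the inner start 325530 bp away had 1451 and 988 in Par and 1863 and 1170 in LM2 (0.31). PHGDH, the first enzyme of serine synthesis, gained a weak peak (31.2 and 33.1 to 149 and 137, log2 fold change 2.14), and its other start had 739 and 579 against 828 and 612 (0.13). PIK3CD, a catalytic subunit of phosphoinositide 3-kinase, showed 2.35 at the called start and 0.41 at the other. The calls of DST, PDE10A and PIK3CD held without each library, and that of PHGDH was lost without Par replicate 2 (2.20, adjusted p = 0.0549).

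Losses at 11 genes had the same form. CFLAR, which encodes the caspase-8 regulator c-FLIP, fell at a weak start from 77.2 and 69.4 normalized counts to 9.15 and 4.77 (-3.52, adjusted p = 1.75e-05). Its strongest other start, 13712 bp away, had 744 and 653 in Par and 581 and 480 in LM2 (-0.40, adjusted p = 0.996). DNMBP fell at the inner start shown above (-2.87), while its outer start 78951 bp away was at -0.50 (adjusted p = 0.819). MEST, an imprinted gene of mesodermal tissue, fell from 34.9 and 33.9 to 0 and 2.12 (-4.57), with -0.73 at the other start. The CFLAR call was lost without LM2 replicate 2 (-3.01, adjusted p = 0.0642), and the MEST call without Par replicate 1 (-4.62), Par replicate 2 (-4.66) and LM2 replicate 2 (-6.95). LTBR had 165 and 181 in Par and 294 and 204 in LM2 (0.52) at a start 8733 bp from the lost peak, and SCNN1A was at 0.30 at its other start. The starts were chosen as called and uncalled, and the difference between them was not itself tested. At most of the 41 genes the log2 fold changes of both starts had the same sign. Examples were PRKG1 (1.68 and 1.04), PRKCH (1.44 and 0.75) and ZNF43 (-1.26 and -0.56). The PRKCH call was lost without any 1 of the Par or LM2 libraries (1.22 to 1.64) and the PRKG1 call without Par replicate 2 (1.65, adjusted p = 0.138) or LM2 replicate 1 (adjusted p = 0.112).

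**Figure D3:**
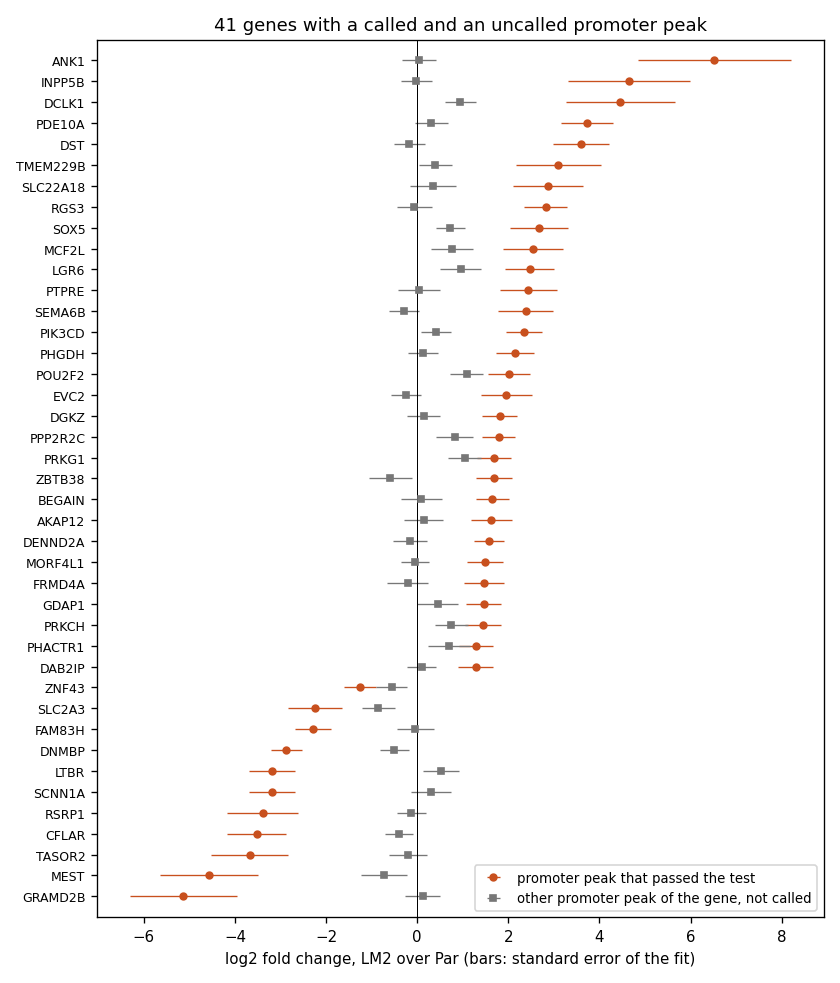
log2 fold change of LM2 over Par (x) at the called promoter peak (circles) and at the strongest uncalled promoter peak (squares) of each of 41 genes (y), with bars of 1 standard error of the fit. The circles run from -5.13 at GRAMD2B to 6.52 at ANK1, and the squares from -0.85 at SLC2A3 to 1.09 at POU2F2. Circles were chosen as called and squares as uncalled, so the smaller size of the squares follows in part from that choice.

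Genes tied to lung metastasis of breast cancer were examined as a list. It was drawn from expression work on sublines of MDA-MB-231, so it is no independent evidence of direction. Of 22 members, 20 had a promoter peak, 18 could be tested, 4 were gained (SPARC, MMP2, FSCN1 and ROBO1) and 0 were lost, with a median log2 fold change of 0.55 against -0.02 over all genes. The gained share was 22.2% of those tested, against 1.67% of all genes. The blocked fit called 7 gained and 1 lost (41.2% and 5.88%), against 10.2% and 8.35% of all genes. These all-gene shares, 1.67% gained and 0.57% lost, or 10.2% and 8.35% in the blocked fit, are the background of each list that follows. FSCN1, an actin-bundling protein of filopodia, rose from 140 and 162 normalized counts to 613 and 491 (1.86, adjusted p = 7.20e-06) and stayed called without each library. ROBO1, a receptor for Slit proteins, rose from 200 and 212 to 714 and 476 (1.52, adjusted p = 0.00143). The ROBO1 call was lost without Par replicate 1 (1.49), Par replicate 2 (1.57) and LM2 replicate 1 (1.19).

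Of 23 secreted matrix genes with a promoter peak, SPARC alone was called (4.35%, against 1.67% of all genes gained), with a median of 0.10. The blocked fit called 4 of them gained (17.4%, against 10.2%). Of 25 collagen genes, COL6A1 alone was called (4%, against 1.67% gained), with a median of 0.61. In the blocked fit 11 collagen genes were gained and 1 was lost (44% and 4%, against 10.2% and 8.35%). COL6A1, a chain of collagen VI, rose from 202 and 182 normalized counts to 558 and 425 (1.36, adjusted p = 0.00686). Its call was lost without any 1 of the Par or LM2 libraries, at log2 fold changes from 1.14 to 1.53.

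Of 21 genes of vessel growth with a promoter peak, PGF and PDGFB were gained (9.52%, against 1.67% of all genes) and CCBE1 was lost (4.76%, against 0.57%), with a median of 0.16. PGF, the placental growth factor that binds the receptor FLT1, rose from 90.0 and 84.0 normalized counts to 378 and 307 (1.98, adjusted p = 1.18e-05). PDGFB, a ligand for receptors on pericytes, rose from 138 and 92.5 to 253 and 286 (1.25, adjusted p = 0.044), and its call was lost without any 1 of the 6 libraries, at log2 fold changes from 0.97 to 1.54. The blocked fit called 6 of the list gained and 2 lost (28.6% and 9.52%, against 10.2% and 8.35%).

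Axon guidance genes had 6 gains and 0 losses among 58 with a promoter peak, with a median of 0.25. The gains were 10.9% of the 55 tested, against 1.67% of all genes, and the blocked fit called 19 gained and 1 lost (34.5% and 1.82%, against 10.2% and 8.35%). The ligand NTN1 rose from 86.4 and 73.2 normalized counts to 313 and 262 (1.86), and its receptor UNC5A from 45.9 and 39.3 to 134 and 162 (1.81). The Slit receptor ROBO2 rose from 18.4 and 26.2 to 162 and 135 (2.68, adjusted p = 3.73e-07). The semaphorin SEMA6B (2.38) and the semaphorin receptor PLXNC1 (1.28) were also gained. ROBO2 stayed called without each library, NTN1 lost the call without Par replicate 2 (1.73). UNC5A and PLXNC1 lost it without any 1 of the Par or LM2 libraries (1.65 to 1.92 and 1.11 to 1.43), and SEMA6B without Par replicate 1 (2.19), Par replicate 2 (2.71) and LM2 replicate 2 (2.03). SEMA6B has another start at 500 and 433 normalized counts in Par and 381 and 376 in LM2 (-0.30).

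Potassium channels had 5 gains and 0 losses among 51 genes with a promoter peak, with a median of 0.54. The gains were 10.9% of the 46 tested, against 1.67% of all genes, and in the blocked fit 13 were gained and 1 lost (28.3% and 2.17%, against 10.2% and 8.35%). KCNQ3, a subunit of the M-current channel, rose from 73.5 and 63.2 normalized counts to 366 and 375 (2.45, adjusted p = 2.75e-09). KCNK1, a two-pore leak channel, rose from 162 and 146 to 561 and 488 (1.77). KCNB2 (2.32), KCNH8 (2.18) and KCND3 (1.67), all voltage-gated, were gained from 12.9 to 53.9 normalized counts in Par. KCNQ3 and KCNK1 stayed called without each library. KCNB2 lost the call without Par replicate 2 (2.66) and LM2 replicate 2 (2.20), KCNH8 without LM2 replicate 2 (1.96), and KCND3 without any 1 of the 6 libraries (1.52 to 1.80).

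Among signalling ligands, 3 of 25 chemokine and interleukin genes with a promoter peak were gained (12%, against 1.67% of all genes), with a median of -0.02. The blocked fit called 7 gained and 1 lost (29.2% and 4.17%, against 10.2% and 8.35%). IL11, a ligand that signals through gp130, rose from 202 and 395 normalized counts to 805 and 859 (1.47). IL6R, the interleukin 6 receptor chain, rose from 86.4 and 88.6 to 221 and 202 (1.27). IL1B had 0 and 0.771 in Par and 29.0 and 13.2 in LM2, a counting ratio of 31.9 (5.43 to 1286) that rests on 1 Par read. IL11 lost the call without Par replicate 1 (1.07), LM2 replicate 1 (1.50) and LM2 replicate 2 (1.41), and IL6R (1.19 to 1.33) and IL1B without any 1 of the 6 libraries.

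TGF-beta family genes had 3 gains among 19 with a promoter peak, which is 15.8% against 1.67% of all genes, with a median of 0.07. In the blocked fit 7 were gained and 3 lost (36.8% and 15.8%, against 10.2% and 8.35%). BMP2, a bone morphogenetic protein, rose from 413 and 254 normalized counts to 1081 and 697 (1.42). ID4, an inhibitor of helix-loop-helix factors that BMP signalling induces, rose from 588 and 473 to 1441 and 961 (1.18). INHBA, the subunit of activin A, rose from 12.9 and 16.2 to 36.6 and 98.5 (2.22). BMP2 lost the call without Par replicate 2 (1.10) and LM2 replicate 1 (1.06), ID4 without any 1 of the Par or LM2 libraries (0.85 to 1.43), and INHBA without either Par or BrM2 library and LM2 replicate 2 (1.30 to 2.42). Of 13 genes of the EGF receptor family NRG4 was called (1.13, at a peak shared with TMEM266), which is 7.69% against 1.67% of all genes. The list had a median of 0.06, and the blocked fit called 3 gained (25%, against 10.2%). The NRG4 call was lost without any 1 of the 6 libraries (1.00 to 1.24).

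ESR1, which encodes the oestrogen receptor and lies in the list of luminal markers, was gained at its only promoter peak. That peak lies at an annotated start 150853 bp inside the outermost one. The peak had 44.1 and 37.0 normalized counts in Par and 262 and 200 in LM2 (2.52 ± 0.42, adjusted p = 1.06e-06), and stayed called without each library. Of the 5 other luminal or epithelial markers, FOXA1 had 142 and 151 in Par and 307 and 313 in LM2 (1.08, adjusted p = 0.0609), and GATA3 had 86.4 and 210 in Par and 53.4 and 94.2 in LM2 (adjusted p = 0.538). The blocked fit called 3 of the 6 gained and 1 lost (50% and 16.7%, against 10.2% and 8.35% of all genes).

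Among lineage factors, SOX21 (1.50) and SOX5 (2.67) were gained of 36 SOX and FOX genes with a promoter peak (5.56%, median 0.12). HOXB6 (2.21) was gained of 14 HOX genes (7.69% of the 13 tested, median 0.33). Both shares stand against 1.67% of all genes. The blocked fit called 6 SOX and FOX genes gained and 3 lost (16.7% and 8.33%), and 3 HOX genes gained (23.1%). Over all genes its shares were 10.2% and 8.35%. SOX21, a neural factor on chromosome 13, rose from 178 and 139 normalized counts to 512 and 380, and with 5 Mb medians removed was at 0.90 (adjusted p = 0.251). HOXB6 rose from 31.2 and 30.1 to 108 and 172, and SOX5 from 9.19 and 13.1 to 56.4 and 88.9. At the strongest other start of SOX5, 612802 bp away, Par had 456 and 410 and LM2 759 and 676. Calls were lost without Par replicate 2 for SOX21 (1.32), SOX5 (3.00) and HOXB6 (2.18), without LM2 replicate 1 for SOX21 (1.26), without LM2 replicate 2 for SOX5 (2.29) and HOXB6 (1.81), and without Par replicate 1 for SOX5 (2.48).

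The 450 ZNF genes with a promoter peak had a median of -0.17. Of these, 3 were gained (0.667%) and 1 was lost (0.222%), both under the 1.67% and 0.57% of all genes. In the blocked fit 17 were gained and 54 lost (3.79% and 12%, against 10.2% and 8.35%). ZNF423 rose from 134 and 113 normalized counts to 285 and 329, and ZNF43 fell from 244 and 217 to 96.1 and 96.4 (1.33 and -1.26). ZNF730 had 4 reads in Par and a counting ratio of 10.1 (3.75 to 38.5). All 3, and ZNF503, lost the call without any 1 of the Par or LM2 libraries, at log2 fold changes of 1.20 to 1.45 for ZNF423, -1.34 to -1.17 for ZNF43, 3.25 to 3.65 for ZNF730 and 0.92 to 1.23 for ZNF503, and ZNF43 also without either BrM2 library.

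Cadherin and protocadherin genes had a median of 0.65 over 33 with a promoter peak. PCDH20 alone was called (3.45% of the 29 tested, against 1.67% of all genes gained). It rose from 11.02 and 13.1 to 38.1 and 79.4 normalized counts (2.29). The blocked fit called 6 of the list gained and 1 lost (20.7% and 3.45%, against 10.2% and 8.35%). PCDH20 lies on chromosome 13, and with 5 Mb medians removed its difference was gone (adjusted p = 1). Its call was also lost without either Par library (2.18 and 2.44), without LM2 replicate 2 (1.63) and without BrM2 replicate 2 (2.29).

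In other lists 0 genes passed the DESeq2 test in either direction. These were 14 mesenchymal genes (median 0.02), 17 genes of the H3K4 methylation machinery (-0.17), 28 interferon response genes (-0.18), 78 ribosomal protein genes (-0.15), 14 housekeeping genes (-0.18) and 2 of 71 cancer-testis genes that had a promoter peak at all (1.22). The blocked fit called 2 gained and 3 lost among the mesenchymal genes (14.3% and 21.4%), and 2 and 1 among the interferon genes (7.14% and 3.57%). It called 5 and 11 among the ribosomal protein genes (6.41% and 14.1%), and 0 and 2 among the housekeeping genes (0% and 14.3%). In the H3K4 and cancer-testis lists it called 0 in either direction. Over all genes its shares were 10.2% gained and 8.35% lost.

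H3K27ac, measured in separate libraries of the same lines, moved the same way at most gained and lost promoters. Of the 228 gained genes, 205 had a peak that overlapped an H3K27ac peak, where H3K27ac was above 0 on the log2 scale at 197 (median 0.96). It was called higher at 44 of 189 that could be tested (23.3%) and called lower at 0, against 0.723% called higher among all H3K27ac peaks at promoter H3K4me3 peaks. Of the 78 lost genes, 68 overlapped an H3K27ac peak, H3K27ac was below 0 at 64 (median -1.21), and it was called lower at 21 of 53 tested (39.6%) and higher at 0, against 0.559% called lower. With a replicate block in the H3K27ac fit, 52 gained and 26 lost genes were called the same way and 0 the opposite way. The share of all promoter H3K27ac peaks called in that blocked fit was not computed, so these counts are a description. The number of gained genes with H3K27ac called fell to between 6 and 27 when any 1 library was left out, and of lost genes to 2 to 5 without any 1 of the Par or LM2 libraries.

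Named genes differed in how far H3K27ac moved. PAPPA had 81.0 and 111 normalized H3K27ac counts in Par and 392 and 656 in LM2 (2.45, adjusted p = 2.52e-09). AMPH (3.61), PLCB1 (3.35), LRMDA (3.64), FBXL7 (2.51), AFF3 (1.52) and CSF3 (1.44) were all called higher for H3K27ac. SPARC had 168 and 225 in Par and 187 and 256 in LM2, a log2 fold change of 0.17 ± 0.32 (adjusted p = 0.949), beside 5.50 for H3K4me3. DST (0.16), FSCN1 (0.07) and DNMBP (-0.40) likewise had H3K27ac log2 fold changes under 0.5 in size. Among lost genes, EHF fell from 187 and 187 to 82.5 and 68.0 H3K27ac counts (-1.31, adjusted p = 0.00182), KLF14 was at -2.83 (adjusted p = 0.0486) and CLDN4 at -0.92 (adjusted p = 0.0586).

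**Figure D4:**
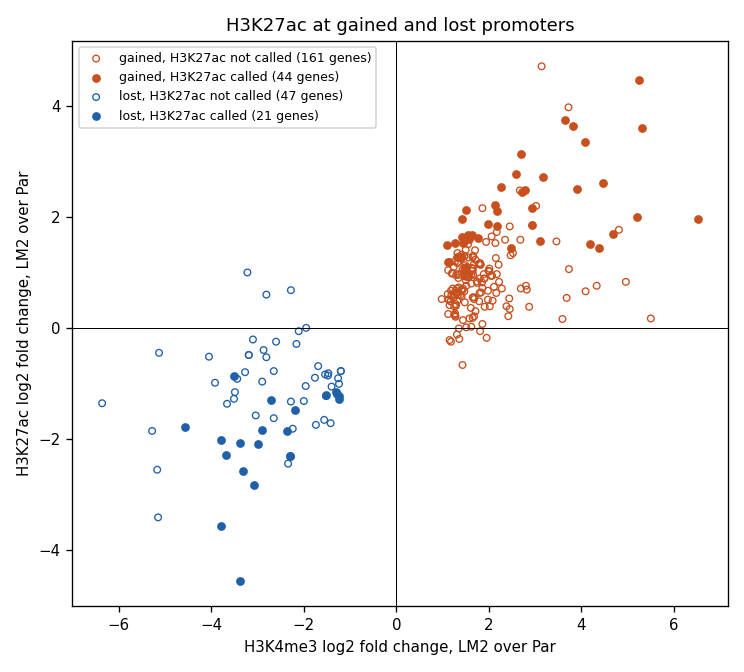
log2 fold change of LM2 over Par for H3K4me3 (x) and for the overlapping H3K27ac peak (y), 1 point per gained (orange) or lost (blue) gene, filled where H3K27ac passed the test (44 gained and 21 lost genes). Most gained genes lie above 0 on the H3K27ac axis (197 of 205) and most lost genes below it (64 of 68).

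Gains and losses were not spread evenly over chromosomes. Chromosome 13 had 13 gained and 0 lost genes among 235 (5.53% gained, against 1.67% of all tested genes). Its median was 0.49 over all its genes, and 1 of the 13 stayed called with 5 Mb medians removed. The next highest gained shares were on chromosomes 18 (3.12%, 6 of 6 stayed called) and 15 (2.93%, 5 of 13). Chromosome X had 13 lost genes among 469 (2.77%, against 0.57% of all tested genes) and 6 gained, and 2 of the 13 lost stayed called. A stretch of the short arm, chrX:12992586-41197145, was delimited after the values were seen and held 11 of the 13 lost and 2 of the 6 gained genes. The gained genes there were PTCHD1 (3.14), which lost the call without Par replicate 2 (3.12, adjusted p = 0.224), and CNKSR2 (1.32), which lost it without any 1 of the Par or LM2 libraries (1.19 to 1.45). In it 65 of 71 tested genes were below 0 with a median of -0.82, against 261 of 394 and -0.15 elsewhere on the chromosome. H3K27ac was below 0 at 63 of 66 genes there (median -1.01), and the median of BrM2 over Par for H3K4me3, a contrast that shares the Par libraries, was -1.01. Copy number was not tested.

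The lost genes of the stretch include strongly marked promoters of broadly used genes. DDX3X, an RNA helicase, had 781 and 885 normalized counts in Par and 287 and 395 in LM2 (-1.28, adjusted p = 0.00654). It was the only lost promoter with a mean of at least 500 over Par and LM2, a mean that the loss itself lowers. In Par alone, both libraries were also above 500 at DNMBP (739 and 742), KRT7 (731 and 657), TMSB4X (604 and 612) and MID1IP1 (524 and 611). TMSB4X (-1.25), which encodes thymosin beta 4, and the translation factors EIF2S3 (-1.25) and EIF1AX (-1.24) fell by near amounts. With 5 Mb medians removed DDX3X was at -0.62 (adjusted p = 0.762). Its call was lost without Par replicate 1 (-1.38), Par replicate 2 (-1.19) and LM2 replicate 1 (-1.09). TMSB4X, EIF2S3 and EIF1AX lost theirs without any 1 of the Par or LM2 libraries, at log2 fold changes from -1.41 to -1.06. Over all chromosomes, 170 of the 228 gained and 59 of the 78 lost genes stayed called with 5 Mb medians removed.

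**Figure D5:**
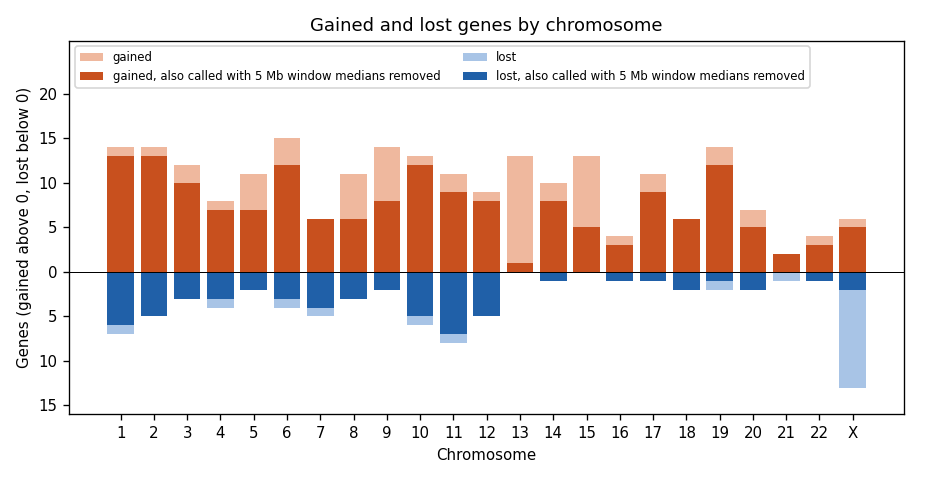
Number of gained (above 0) and lost (below 0) genes on each chromosome, in a dark shade where the gene was also called with 5 Mb window medians removed. On chromosome 13 the dark part is 1 of 13 gained genes and on chromosome X 2 of 13 lost genes, while on chromosome 1 it is 13 of 14 gained.

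Called peaks away from protein-coding starts included starts of non-coding RNAs. The peak at LINC02182 (chr16:88216718-88220490) had 1.84 and 2.31 normalized counts in Par, which are 4 reads, and 146 and 229 in LM2, a counting ratio of 95.7 (37.2 to 353), and stayed called without each library. A peak at ENSG00000277011 inside GALNT9 rose from 3.67 and 10.0 to 236 and 322 (5.31), and a peak inside SYNDIG1 from 0 and 8.48 to 94.5 and 209 (4.85). The ENSG00000277011 call was lost without any 1 of the Par or LM2 libraries (4.79 to 6.25), and the SYNDIG1 call without LM2 replicate 1 (5.50) and without either BrM2 library (5.04). The largest such losses were 92030 bp from the start of DPYD (73.5 and 142 to 9.15 and 24.9, -2.56), at ENSG00000268119 (-2.46) and at LINC00960 (-2.36), and these 3 calls were lost without Par replicate 2 (-1.99, -2.42 and -2.36).

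BrM2 libraries were set directly against LM2 at the 68 peaks named by rule. Of these, 18 differed between the metastatic lines while 3.18% of all peaks differed, and 44 did in the blocked fit, where 22% of all peaks differed. The peaks were chosen with the same LM2 libraries, so the share is a description. At FAM24B, BrM2 had 286 and 222 normalized counts against 22.9 and 24.9 in LM2 (BrM2 minus LM2 3.40 ± 0.43 on the log2 scale, adjusted p = 3.26e-12).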

How the data were processed

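H3K4me3 and H3K27ac were profiled by ChIP-seq in Par, LM2 and BrM2 with 2 libraries per line and mark. The 3 input samples were not used here. Per the submitters' processing notes, the authors used CASAVA 1.8.2, Trimmomatic 0.32, Bowtie2 2.3.4.3 and hg19, Picard 2.18.21, and MACS2 2.1.2. The study's methods give broad peaks called on the merged reads of a mark, so regions with the mark in a single line may be missing. The deposited tables hold raw counts per peak that the authors made with featureCounts 1.6.0 (per the file headers) from reads extended by 150 bp. All 12 count columns matched a sample. Fixation was for 10 min per the labels and differs in the study's methods.

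LM2 was tested against Par with the DESeq2 1.42.0 Wald test (R 4.3.3) in a fit of the 6 libraries of a mark with line as the only term (3 residual degrees of freedom), without shrinkage of log2 fold changes, with size factors by the median of ratios, default independent filtering and Benjamini-Hochberg adjustment over all peaks. Errors are standard errors of the fit. Over 18457 peaks, the deviation of a library from its line's mean correlated with that of the library of the same number in another line. The r was 0.676 for Par with LM2, 0.645 for Par with BrM2 and 0.691 for LM2 with BrM2. Libraries of the same number thus deviated alike, which does not by itself show that they were prepared as pairs. Replicate 2 was the deeper H3K4me3 library in each line. The replicate block, which leaves 2 residual degrees of freedom, is printed beside results whose call it changes or whose count it shifts beyond 1.5 times. edgeR 4.0.16 was an alternative. Scripts were tested on simulated data.

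Starts came from GENCODE release 44 on GRCh37, and 0 of 22572 peaks lay beyond a chromosome end. A gene with several promoter peaks is described by the one with the smallest p. The H3K27ac peak that shared most bases, at least 1, was paired with a peak. Named genes were, among called promoter peaks with a mean of at least 50 normalized counts in Par and LM2, no overlap between the lines and a call in the blocked fit, the 10 largest and 10 smallest log2 fold changes, then the 5 largest and 5 smallest among peaks with a mean of at least 500, and the called members of the gene lists. Of called peaks with no protein-coding start, the 3 largest and 3 smallest were named. Among the 10 smallest log2 fold changes at protein-coding starts, 1 peak is not reported here, though counts over named peaks include it. The members and lists were chosen with earlier results of these data known. Depth was 3489607 to 9839629 reads in H3K4me3 peaks and 1994996 to 6450028 in H3K27ac peaks per library. Ratios at promoters with 1 to 3 reads have exact 95% intervals for counting error only.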

Additional observations from a re-analysis of the deposited data

Results flagged for a closer look

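Given here are 12 promoters of largest change at which LM2 and BrM2 differed in the direct test of the metastatic lines (DESeq2, BrM2 minus LM2 on the log2 scale, both adjusted over all peaks). The peaks were chosen for their LM2 values, so these differences are descriptions.

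BrM2 was lower than LM2 at the gained promoters of BEND5 (-5.23, adjusted p = 1.97e-09), SPARC (-2.50, 2.02e-06), MMP2 (-4.08, 1.13e-06), CSF3 (-5.41, 5.50e-24), LRMDA (-3.23, 2.58e-11) and PAPPA (-1.21, 0.0107). It was higher at the lost promoters of FAM24B (3.40, adjusted p = 3.26e-12), TP53I11 (2.31, 8.44e-07), DNMBP (2.42, 6.95e-10), EHF (2.53, 3.66e-05) and ZYG11A (2.52, 1.13e-07). KLF14 differed in the other sense, since BrM2 was still lower than LM2 (-4.49, adjusted p = 4.44e-04). All 12 differences also passed with the replicate block, with the largest adjusted p at BEND5 (0.0149).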

How the results depend on the processing

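Direction was kept by all 68 named peaks under every alternative except PCDH20 with 5 Mb medians removed (-0.001031, adjusted p = 1). The named peaks that stayed called numbered 68 with the replicate block in DESeq2 and edgeR, 49 with edgeR, 58 with only LM2 and Par libraries, 67 with TMM, 62 with total counts, 57 with 5 Mb medians removed, and 30 (without Par replicate 2) to 57 with a library left out. With edgeR, 19 were not called (adjusted p 0.0512 to 0.312): RORA, TFAP2C, STOX2, SHISA2, DDX3X, ADM, ZNF503, BCL11A, PTK7, PDGFB, PCDH20, SEMA6B, KCND3, IL11, IL6R, IL1B, BMP2, ID4 and INHBA. With 5 Mb medians removed the calls of SHISA2, DDX3X, ADM, ZNF503, PDGFB, SOX21, ZNF43, IL1B, NRG4, BMP2 and PCDH20 were lost. 25 of the 68 stayed called without each library in turn.

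With the DESeq2 replicate block, peaks called moved from 411 higher and 112 lower to 1776 and 1095. Genes moved from 228 gained and 78 lost to 1390 and 1138. Those with H3K27ac called alike moved from 44 gained and 21 lost to 108 and 126, which are among the 1390 and 1138. Named peaks that differ between BrM2 and LM2 moved from 18 to 44, an alternative added after the data were seen. With the edgeR block the peak, gene and H3K27ac counts were 3124, 2880, 2280, 2719, 331 and 636. Without a block, edgeR called 72 peaks lower. Gained genes with H3K27ac called numbered 29 with only LM2 and Par libraries and 28 with 5 Mb medians removed. With a library left out, counts ranged from 71 to 316 peaks higher, 29 to 85 lower, 51 to 177 genes gained, 26 to 63 lost, and 6 to 27 and 2 to 16 with H3K27ac called alike. Other promoter distances, the outermost start, summed counts, TMM, total counts and the count filters kept each count within 1.5 times.

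Depth limits weakly marked promoters most: 19 called genes rest on at most 3 reads per library in the lower line, where folds are counting ratios or bounds. The TMM and total-count size factors moved the median of all peaks by under 0.1 on the log2 scale.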

Other observations

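Among the gained genes were several that encode secreted ligands or their binding proteins, picked out here after their values were seen. WNT5A, a ligand of non-canonical Wnt signalling, rose from 182 and 195 normalized H3K4me3 counts in Par to 653 and 530 in LM2 (log2 fold change 1.65, adjusted p = 9.18e-05 by DESeq2). Its BrM2 libraries had 700 and 583. SHH, the ligand sonic hedgehog, rose from 164 and 227 to 634 and 605 (1.65, adjusted p = 3.06e-04), and its BrM2 libraries, at 135 and 181, lay below both LM2 libraries. IGFBP2, which binds insulin-like growth factors, rose from 18.4 and 23.9 to 146 and 154 (2.80, adjusted p = 6.56e-06), against 18.5 and 31.1 in BrM2. WNT5A and IGFBP2 stayed called without each library, and SHH lost the call without Par replicate 1 (1.44, adjusted p = 0.0726). The differences between BrM2 and LM2 at these genes are given as values only.

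A further set of 4 genes was picked out in the same way. MXRA8, a cell-surface adhesion protein, fell from 71.7 and 89.4 normalized H3K4me3 counts to 3.05 and 5.82 (-4.05, adjusted p = 6.69e-08), against 96.2 and 153 in BrM2. IGSF1, a membrane protein of the immunoglobulin superfamily, rose from 0 and 3.08 to 93.0 and 64.1 (5.25, adjusted p = 7.91e-06), against 9.23 and 11.8 in BrM2. SRGN, the proteoglycan serglycin of secretory granules, rose from 18.4 and 36.2 to 139 and 178 (2.47, adjusted p = 5.14e-06), against 268 and 288 in BrM2. TNFSF10, the death-receptor ligand TRAIL, fell from 151 and 144 to 29.0 and 34.4 (-2.20, adjusted p = 1.98e-04), against 21.1 and 22.4 in BrM2. MXRA8, IGSF1 and SRGN stayed called without each library, and TNFSF10 lost the call without Par replicate 2 (-2.23, adjusted p = 0.0944).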
